A study of Mus musculus with 4 samples.

Results

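Genes encoding ligands, receptors and inhibitors of the fibroblast growth factor (FGF) and bone morphogenetic protein (BMP) pathways were compared between donor-derived and host-derived cells of chimeric mouse kidneys. Members were chosen by gene symbol from the platform annotation: FGF ligands, the receptors Fgfr1 to Fgfr4, BMP and growth differentiation factor (GDF) ligands, the BMP receptors Bmpr1a, Bmpr1b and Bmpr2, the intracellular inhibitors Spry1 to Spry4 and Spred1 to Spred3, and the extracellular BMP antagonists gremlin, noggin and chordin. The rule found 55 genes among the 18194 measured, and for every gene the probe set of highest average log2 intensity was used. Bmp1 is a member by name, although it encodes a metalloprotease that cleaves procollagens and chordin and is not a BMP ligand.

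The tissue was the kidney of E15.5 mouse embryos, a stage of branching and nephron formation. Wildtype blastocysts had been injected with 3 to 5 embryonic stem cells that carried green fluorescent protein (GFP) and lacked Tfrc, the gene of transferrin receptor 1. Kidneys were dissociated with enzymes and sorted into GFP-positive cells, labelled Tfrc-null, and GFP-negative wildtype cells, with 2 Affymetrix mouse whole-genome arrays for each population. All cells came from chimeric kidneys, and no array held GFP-positive donor cells with an intact Tfrc gene, so donor origin and Tfrc genotype cannot be told apart. The labels call the arrays biological replicates without naming animals, so p-values measure the spread between these samples, and they do not give the stem cell line, its clone or whether kidneys were pooled.

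FGFs are secreted ligands that bind receptor tyrosine kinases and signal through the MAP kinase cascade, which in turn induces Sprouty and Spred proteins that dampen it. BMPs bind pairs of type I and type II serine/threonine kinase receptors, which phosphorylate SMAD proteins, and gremlin, noggin and chordin trap the ligands outside the cell. In the embryonic kidney, FGF7 and FGF10 from the mesenchyme act on the ureteric bud through FGFR2, FGF9 and FGF20 keep nephron progenitors alive, BMP7 does so too, and BMP4 restrains budding of the ureter.

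The clearest differences lay in a few genes of the FGF and BMP ligand families. Fgf7, Bmp5 and Fgf18 stood higher on both labelled Tfrc-null arrays than on both wildtype arrays, with group means at least 2-fold apart, and Bmp6 and Fgf15 stood higher by smaller amounts. Fgf1 stood lower, and so, by less than 1.5-fold, did Fgf12 and Bmp7. With the probe sets used, the 4 FGF receptors, the 3 BMP receptors and the 7 Sprouty and Spred genes had group differences within 0.35 on the log2 scale. Some further probe sets lay outside this range, among them 1 of Fgfr2 (-0.78), 1 of Spred2 (-0.59) and 1 of Spry4 (0.70). No member passed an adjusted p of 0.05 (limma, Benjamini-Hochberg over 18194 genes), and the lowest adjusted p among the members was 0.191, for Bmp5. By the same test 0% of all genes passed, whereas a fit blocked on replicate number called 0.011%, none of them a member.

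The upstream sequences of the 3 genes with at least a 2-fold difference are shown because they are the regulatory regions nearest to the transcripts that stood furthest apart. Each is the 250 bases before the RefSeq transcription start in GRCm38.p6, on the strand of the gene: chr2:126034408-126034657 (+) for Fgf7, chr9:75775115-75775364 (+) for Bmp5 and chr11:33147401-33147650 (-) for Fgf18. Capitals mark CAGAC or its reverse complement GTCTG, the short element bound by SMAD proteins.
Fgf7: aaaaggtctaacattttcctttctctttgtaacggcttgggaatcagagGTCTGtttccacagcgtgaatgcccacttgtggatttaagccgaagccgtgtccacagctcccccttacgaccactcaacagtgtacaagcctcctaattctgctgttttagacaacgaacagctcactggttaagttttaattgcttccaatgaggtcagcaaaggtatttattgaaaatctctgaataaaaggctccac
Bmp5: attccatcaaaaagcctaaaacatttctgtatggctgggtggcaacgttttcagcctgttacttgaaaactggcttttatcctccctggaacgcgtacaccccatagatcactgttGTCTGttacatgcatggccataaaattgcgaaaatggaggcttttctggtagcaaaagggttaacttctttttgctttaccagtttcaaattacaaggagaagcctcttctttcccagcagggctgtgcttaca
Fgf18: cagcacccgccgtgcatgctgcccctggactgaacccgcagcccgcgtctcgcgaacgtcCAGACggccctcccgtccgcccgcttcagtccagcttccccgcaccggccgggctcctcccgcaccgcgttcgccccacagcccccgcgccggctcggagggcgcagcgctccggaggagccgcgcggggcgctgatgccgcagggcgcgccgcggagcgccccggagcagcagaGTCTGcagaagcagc
Fgf7 and Bmp5 each held 1 such element and Fgf18 held 2, but 42.2% of 32851 mouse promoters of this length hold at least 1. None of the 3 held GGCGCC, a GC-rich SMAD motif found in 9.59% of all promoters, or TATAAA (either strand), found in 12.4%. Of the 48 windows of members, 10 (20.8%) held GGCGCC and 5 (10.4%) TATAAA. The sequences differed in base composition. Fgf18 had 77.2% G and C and 37 CpG dinucleotides, against 43.6% and 6 for Fgf7 and 42.8% and 4 for Bmp5, while all promoters had medians of 52.4% and 6. Promoter entries existed for 39 of the 55 members, and 18 of the 48 windows (37.5%) held CAGAC or GTCTG. A match describes these letters and does not show that a factor bound there.

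Arrays were read against a control level, which is the highest intensity of 27 bacterial control probe sets on each array and lay between 7.18 and 9.08. Of the 55 members, 45 (81.8%) lay above it on both arrays of at least 1 group, against 79.9% of all genes. The other 10 members, Bmp8a, Bmp10, Fgf2, Fgf5, Fgf6, Fgf14, Fgf16, Gdf5, Gdf9 and Nog, read 4.35 to 10.2, and a difference between such values is not interpretable. Hybridization and RNA controls were higher on the labelled Tfrc-null array of each replicate number, but they differed more between the numbers. BioB, a spiked hybridization control, was brighter in replicate 1 (5350 wildtype, 5780 labelled Tfrc-null) than in replicate 2 (3760 and 4068). Beta-actin probe sets had 3'/5' ratios of 5.51 (wildtype) and 5.89 (labelled Tfrc-null) in replicate 1 and 6.49 and 7.21 in replicate 2. Differences are therefore also given between arrays of the same number. Tfrc was not lower in the labelled Tfrc-null cells: of its 6 probe sets, the 5 above the control level had higher means there. The probe set used read 1759 and 2348 on wildtype arrays and 2509 and 3175 on labelled Tfrc-null arrays (log2 difference 0.47, limma adjusted p = 0.744). Another read 14.5 and 36.9 against 60.8 and 63.1, a log2 difference of 1.42 (limma, unadjusted p = 0.0243). The deleted part of the gene is not given in the labels, and every direction below rests on them.

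Among FGF ligands, Fgf7, a mesenchymal growth factor that signals to epithelium through an isoform of FGFR2, had wildtype values below the control level, so only a lower bound of its fold can be given. Its wildtype intensities were 6.94 and 7.08, and those of labelled Tfrc-null cells 19.8 and 36.2. Both labelled Tfrc-null values lay above the control level, which gives at least a 3.31-fold higher level. The fitted log2 difference was 1.93 (SE 0.32, limma adjusted p = 0.212), with 1.51 between arrays numbered 1 and 2.35 between arrays numbered 2. A second Fgf7 probe set lay at 4.47 to 4.58 on all 4 arrays, below the control level, so 1 probe set carries this result.

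Fgf18, a ligand best known from skeletal and lung mesenchyme, read 19.6 and 12.6 on wildtype arrays and 47.2 and 35.9 on labelled Tfrc-null arrays. The groups did not overlap, and the means were 16.1 ± 4.92 and 41.5 ± 7.96 (SD, n = 2 each). The 2.62-fold difference had a log2 value of 1.39 (SE 0.29, limma adjusted p = 0.292), and it was 1.27 and 1.51 within the replicate numbers. Fgf15, an endocrine FGF of the intestine and embryonic brain, read 9.99 and 9.98 against 14.8 and 21.0, near the control level in wildtype cells, with a log2 difference of 0.82 (SE 0.24, limma adjusted p = 0.439).

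Fgf1, a ligand without a secretion signal that binds all FGF receptors, stood the other way. It read 184 and 325 on wildtype arrays and 146 and 118 on labelled Tfrc-null arrays, without overlap. The log2 difference of -0.90 (SE 0.32, limma adjusted p = 0.555) was uneven, at -0.34 between arrays numbered 1 and -1.46 between arrays numbered 2, and it was -0.49 without wildtype replicate 2. A second Fgf1 probe set above the control level read 12.4 to 13.6 on the 4 arrays and differed by -0.07. Fgf12, an intracellular FGF homologue that modulates sodium channels, was chosen after its values were seen: it read 16.6 and 19.3 against 11.9 and 11.9 (log2 difference -0.58, SE 0.19, limma adjusted p = 0.512). A further Fgf12 probe set read 11.5 and 11.4 on wildtype arrays and 6.16 and 6.74, below the control level, on the others.

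**Figure D1:**
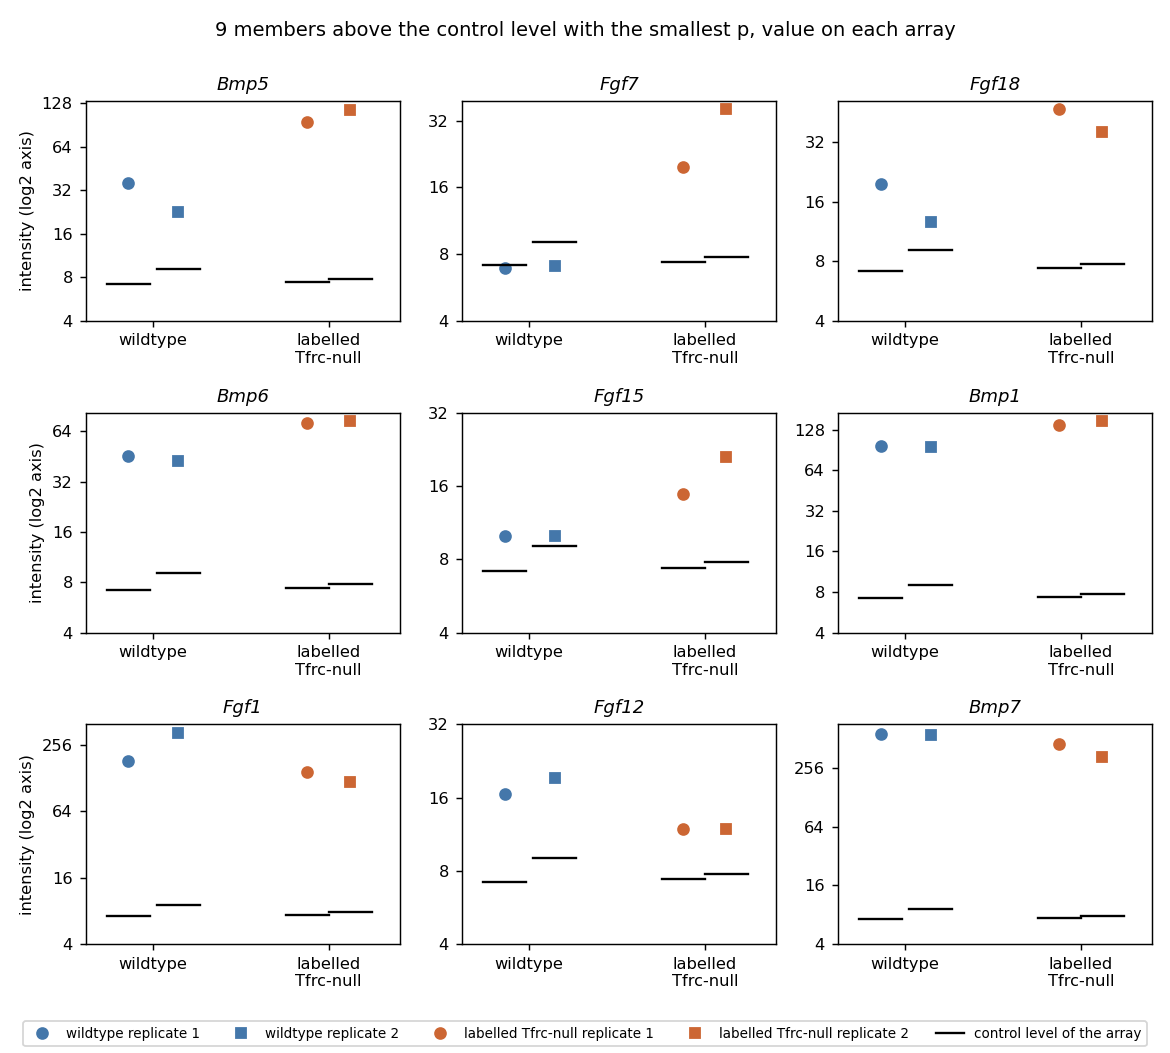
Intensity (log2 axis) on each of the 4 arrays for the 9 members above the control level with the smallest p; circles are replicate 1, squares replicate 2, and black bars the control level of each array. Values of the groups do not overlap in any panel, Fgf7 falls under the black bars in both wildtype samples, and Fgf1, Fgf12 and Bmp7 are lower on the labelled Tfrc-null arrays.

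Apart from Fgf7, the FGF ligands named for their renal roles differed little or lay near background. Fgf9 read 57.3 and 71.9 on wildtype arrays and 49.3 and 61.3 on the others, with overlap. Fgf20 read 8.27 and 16.1 against 8.93 and 12.2, also with overlap, and its larger values were those of replicate 2 in both groups. Fgf10, a close relative of Fgf7 made by stroma, read 7.85 and 8.36 against 13.4 and 9.16. Its groups were apart, but wildtype replicate 2 lay below the control level, and the log2 difference of 0.45 had an SE of 0.25 (limma adjusted p = 0.763). Fgf8, which is needed for nephron formation, read 10.6 and 11.1 against 13.6 and 13.0 (log2 difference 0.30, SE 0.18), a small step near background. Fgf2 lay below the control level on all 4 arrays. Of the FGF ligands not named so far and above the control level, Fgf3, Fgf4, Fgf11, Fgf13, Fgf17, Fgf21, Fgf22 and Fgf23 had log2 differences from -0.15 (Fgf23) to 0.44 (Fgf21).

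None of the 4 FGF receptors passed the test, and the groups of Fgfr1, Fgfr3 and Fgfr4 overlapped with the probe sets used. Fgfr2, the receptor of FGF7 and FGF10 on the ureteric bud, read 1515 and 1870 on wildtype arrays and 1269 and 1424 on labelled Tfrc-null arrays, without overlap, a log2 difference of -0.32 (SE 0.21, limma adjusted p = 0.821, 95% interval -0.85 to 0.20) that was -0.17 without wildtype replicate 2. A second Fgfr2 probe set showed a larger gap, with 37.8 and 37.5 against 20.9 and 22.9 (log2 difference -0.78, SE 0.19). The probe sets can bind different transcript forms, and which forms these are was not analysed here.

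Fgfr1, the main receptor of mesenchymal cells, read 300 and 252 against 344 and 283, with a log2 difference of 0.18 (95% interval -0.35 to 0.72). Its 2 other probe sets also had higher means on the labelled Tfrc-null arrays, by 0.31 and 0.23. Fgfr3 read 98.1 and 95.1 against 88.7 and 117, and Fgfr4 read 21.9 and 27.2 against 19.3 and 27.9, each with overlap. The intervals leave room for changes of up to 0.85 on the log2 scale in Fgfr2, 0.72 in Fgfr1, 0.62 in Fgfr3 and 0.73 in Fgfr4, so a moderate change was not detectable with 2 arrays a group.

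Sprouty and Spred genes, which FGF and other receptor tyrosine kinase signals induce as feedback inhibitors, differed little between the groups with the probe sets used. Spry1, which limits RET and FGF signalling in the ureteric bud, read 255 and 196 on wildtype arrays and 195 and 167 on labelled Tfrc-null arrays. The groups were apart by less than 1 unit, with a difference of -0.31 on the log2 scale (SE 0.22, limma adjusted p = 0.868). Spry2 read 1967 and 2406 against 1910 and 2245, and its difference of -0.07 had a 95% interval of -0.61 to 0.46. Spred1 read 1093 and 1001 against 994 and 941, and Spred2 read 278 and 228 against 246 and 211, with differences of -0.11 and -0.14. Further probe sets were less even, from -0.34 to 0.21 for Spred1 and from -0.59 to 0.20 for Spred2. The Spred2 probe set at -0.59 read 101 and 107 against 56.7 and 84.6, without overlap. Spred3 and Spry3, both dim at 8.23 to 18.6, differed by -0.19 and 0.03.

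Spry4 followed the replicate number. It read 150 and 134 on the wildtype and labelled Tfrc-null arrays numbered 1, and 313 and 309 on those numbered 2. The group difference was -0.09 (SE 0.53), whereas replicate 2 exceeded replicate 1 by 1.07 in wildtype and 1.20 in labelled Tfrc-null cells on the log2 scale. A second bright Spry4 probe set repeated this, with 179 and 127 on arrays numbered 1 and 276 and 259 on arrays numbered 2. The 2 others did not: one read 26.6 and 24.9 on wildtype arrays and 29.2 and 59.7 in the other group, and one lay between 7.78 and 10.9. Bmp4, Bmp2, Fgf11 and Fgf20 also had replicate-number differences above 0.6, in the same direction. The replicate-number difference exceeded the group difference in 21 of the 45 members above the control level (46.7%), against 55.1% of all genes above it.

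**Figure D2:**
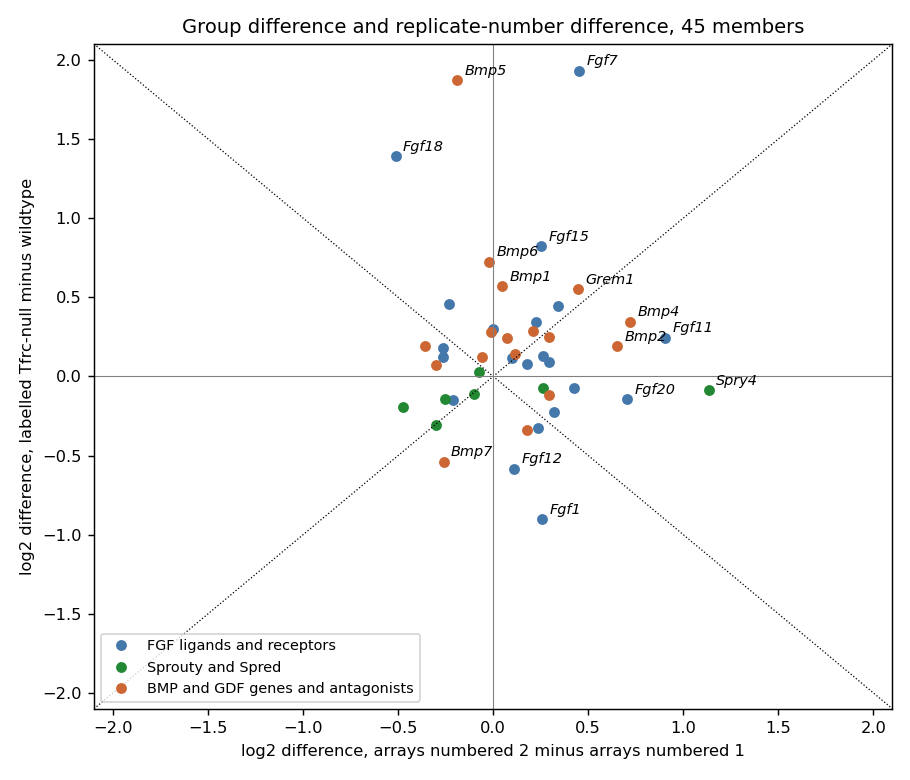
Group difference (vertical, log2) against the mean difference between arrays numbered 2 and 1 (horizontal, log2) for the 45 members above the control level; dotted diagonals mark equal size. Fgf7, Bmp5 and Fgf18 lie far up the vertical axis, and Spry4 lies far out on the horizontal axis.

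Among BMP ligands, the 3 close relatives Bmp5, Bmp6 and Bmp7 stood in different directions. Bmp5, a ligand expressed in mesenchyme around the ureter, read 36.0 and 22.6 on wildtype arrays and 94.6 and 115 on labelled Tfrc-null arrays. The groups were far apart, at means of 29.3 ± 9.44 and 105 ± 14.7 (SD, n = 2 each), a 3.66-fold difference. Its log2 difference of 1.87 (SE 0.29, limma adjusted p = 0.191) was 1.39 between arrays numbered 1 and 2.35 between arrays numbered 2. Both further probe sets of Bmp5 stood higher as well, one at 16.9 and 10.5 against 31.0 and 37.3 (log2 difference 1.36) and the other at 7.52 and 6.52 against 8.76 and 14.0, close to the control level.

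Bmp6, a ligand that in liver links iron stores to hepcidin, read 45.3 and 42.6 on wildtype arrays and 71.4 and 73.8 on labelled Tfrc-null arrays. Replicates differed by less than 3 units in either group, with a difference of 0.72 on the log2 scale (SE 0.18, limma adjusted p = 0.364), with 0.66 and 0.79 within the replicate numbers. Bmp7, which maintains nephron progenitors, read 571 and 549 against 452 and 328. It stood lower on both labelled Tfrc-null arrays, with a log2 difference of -0.54 (SE 0.23, limma adjusted p = 0.655) that was -0.34 and -0.74 within the replicate numbers, and it was -0.31 without labelled Tfrc-null replicate 2. A second Bmp7 probe set read 90.7 and 91.2 against 63.9 and 50.1 (log2 difference -0.69), the same direction.

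**Figure D3:**
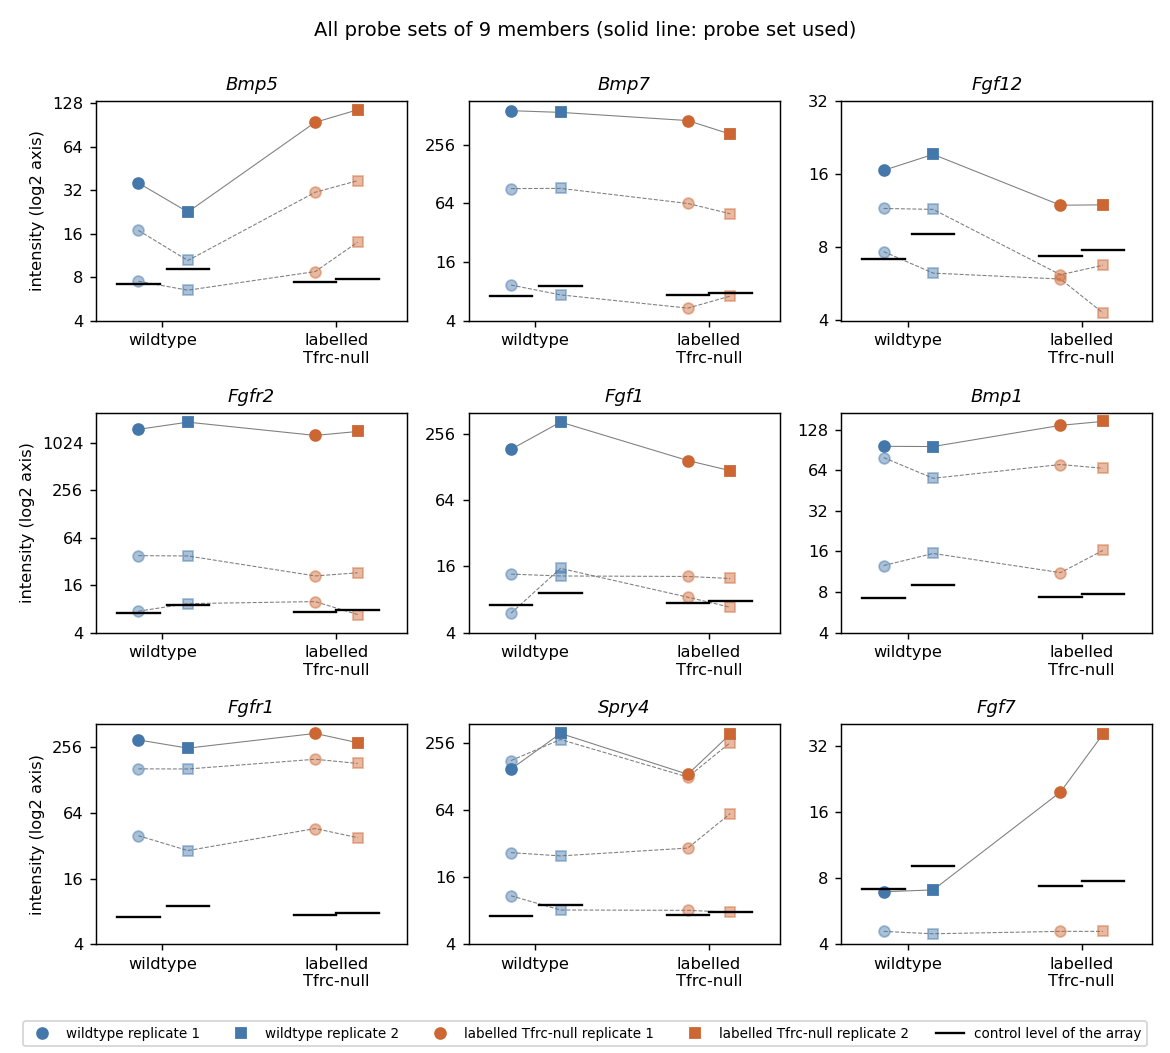
Intensity (log2 axis) on each array for all probe sets of 9 members; solid lines join the values of the probe set used and dashed lines those of the others, and black bars are the control level. All 3 probe sets of Bmp5 have higher means on the labelled Tfrc-null arrays and the 2 probe sets of Bmp7 and of Fgf12 that exceed the control level in a group have lower ones, whereas the others of Bmp1 do not share its difference.

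Bmp2 and Bmp4, which are made in different compartments of the kidney and signal through the same receptors, did not separate by group. Bmp2 read 174 and 205 on wildtype arrays and 149 and 313 on the others, and Bmp4 read 94.0 and 145 against 112 and 197. In both genes the labelled Tfrc-null replicate 2 was the highest array, and without it the log2 difference turned from 0.19 to -0.34 for Bmp2 and from 0.35 to -0.063 for Bmp4. Bmp15 and Bmp8b read 7.35 to 11.9. Bmp1 read 96.1 and 95.8 against 138 and 147 (log2 difference 0.57, SE 0.18, limma adjusted p = 0.503), but its 2 other probe sets differed by 0.04 and -0.05, and the mean of its 3 probe sets by 0.19.

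The 4 GDF ligands above the control level had higher means by at most 0.28 on the log2 scale, none past the test. Of all genes above the level, 58.3% had higher means. Gdf3 lay below the level on both wildtype arrays and passed the filter through the labelled Tfrc-null arrays alone. Its direction is therefore not informative. Gdf11, which induces Gdnf before the ureteric bud forms, read 8.57 and 9.70 against 9.44 and 12.5. Gdf2, Gdf3 and Gdf10 had log2 differences of 0.07 to 0.28 and intensities of 6.75 to 102.

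The BMP receptors lay well above the control level on every array. Bmpr1a, a type I receptor, read 924 and 1164 on wildtype arrays and 1307 and 1149 on labelled Tfrc-null arrays, a log2 difference of 0.24 (95% interval -0.30 to 0.78). Its further probe sets above the control level ran from -0.24 to 0.10, and the mean of all its probe sets differed by 0.03. Bmpr1b, a second type I receptor, read 171 and 199 against 139 and 153, without overlap (log2 difference -0.34, 95% interval -0.83 to 0.15, limma adjusted p = 0.785). The type II receptor Bmpr2 read 1517 and 1985 against 1490 and 1716, with overlap, and its difference of -0.12 had a 95% interval of -0.68 to 0.45.

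Of the antagonists, Grem1, whose removal of BMP4 activity permits ureteric bud outgrowth, read 5.72 and 8.22 on wildtype arrays and 8.82 and 11.4 on labelled Tfrc-null arrays. Only the latter lay above the control level, which gives at least a 1.24-fold higher level (fitted log2 difference 0.55, SE 0.27, limma adjusted p = 0.717). Chrd read 8.77 and 10.2 against 10.4 and 10.5, and Nog did not exceed the control level on any of the 4 arrays.

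**Figure D4:**
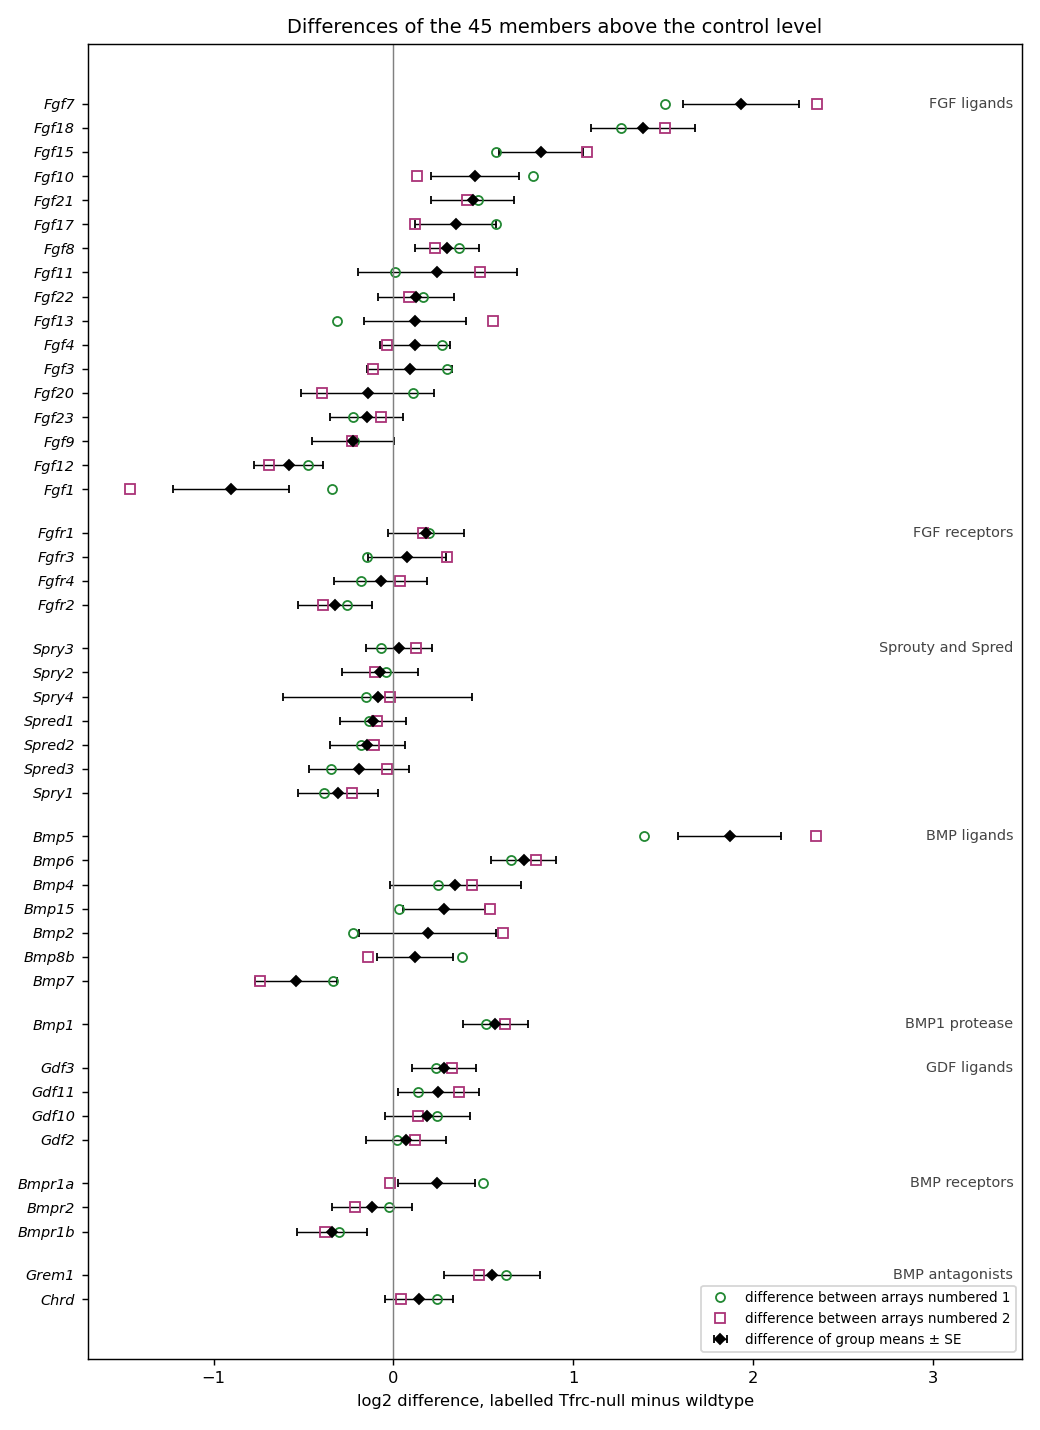
Log2 difference (labelled Tfrc-null minus wildtype, horizontal) of the 45 members above the control level, ordered by role; diamonds are the difference of group means with the SE of the limma fit, circles and squares the differences between arrays numbered 1 and 2. Differences run from -0.90 (Fgf1) to 1.87 (Bmp5) apart from Fgf7, whose fitted 1.93 rests on wildtype values below the control level. Receptors and Sprouty and Spred genes lie within 0.35 of 0 with the probe sets used.

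An unadjusted p under 0.05 (limma) was reached by 8 of 55 members (14.5%), against 8.02% of all genes: Bmp5, Fgf7, Fgf18, Bmp6, Fgf15 and Bmp1, which stood higher, and Fgf12 and Fgf1, which stood lower. The background shares by direction were 4.03% higher and 3.98% lower. These calls depended on single arrays, and fewer members were called in some fits with 1 array left out. In those fits the log2 difference ranged from 0.57 to 1.07 for Fgf15 and from -1.31 to -0.49 for Fgf1. No share of all genes was counted for them, so they cannot be set against the shares above. At least a 2-fold difference without overlap was seen in 3 members higher (5.45%, against 1.15% of all genes) and in 0 lower (1.51% of all genes); 1 was lower without wildtype replicate 1 or without labelled Tfrc-null replicate 1.

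Of the 45 members above the control level, 14 stood higher without overlap (31.1%, against 22.1% of all genes above it) and 7 stood lower without overlap (15.6%, against 15.2%). A passing member had to be above the control level in 1 group only. Fgf7, Fgf10, Fgf17, Fgf21, Bmp15, Gdf3 and Grem1, all counted as higher, passed through the labelled Tfrc-null arrays alone. The control level was also highest on wildtype replicate 2 (9.08). These counts and those that follow therefore do not describe all members, and no shift of the members is drawn from the 31.1%. With a fold of at least 1.5 added, 5 stood higher (5.05% of all genes above the level did) and 1 lower (5.37% did). Means were higher in 29 of the 45 (64.4%), against 58.3% of all genes above the level. The median log2 difference of the 45 was 0.12, against 0.06 over all genes above the control level.

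Other genes of both pathways, taken from lists outside the rule, showed no shift past the test. Of 60 genes measured, 0 passed an adjusted p of 0.05 (limma), and 1 reached an unadjusted p under 0.05, against 8.02% of all genes. That gene was Id4, a BMP-induced inhibitor of basic helix-loop-helix factors, with intensities of 942 and 1062 in wildtype and 629 and 749 in labelled Tfrc-null cells (difference of -0.54 on the log2 scale, SE 0.20, limma adjusted p = 0.58). Among the 8 FGF-induced genes measured, all means were lower on the labelled Tfrc-null arrays, and 4 of 8 lay lower without overlap. Over all genes above the control level, 58.3% had higher means and 15.2% lay lower without overlap. The median of the 8 was -0.28 on the log2 scale, and they ran from -0.40 (Dusp6) to -0.02 (Egr1), with Fos at -0.07. The phosphatase gene Dusp6 read 1981 and 2239 against 1393 and 1817 (-0.40, SE 0.22), and the ETS factor gene Etv5 read 593 and 722 against 558 and 481 (-0.34, SE 0.21). Neither of these differences passed the threshold, at adjusted p = 0.763 and 0.812 (limma).

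Of the adaptors and co-receptors of FGF signalling, 7 of 14 above the control level had higher means, against 58.3% of all genes above it. Flrt2 and Gab1 stood at 0.39 and 0.26 on the log2 scale. Among the further BMP receptors and co-receptors, 5 of 8 above the control level lay lower without overlap and 2 higher, against 15.2% and 22.1% of all genes above it. The co-receptor genes Eng, which is also an endothelial gene, and Rgmb read 197 and 113 against 94.3 and 81.7, and 108 and 120 against 83.1 and 83.5. SMAD genes were near equal, with a median of -0.04, and Smad6 and Smad9 differed by 0.30 and 0.22. The BMP-induced genes had a median of 0.03, with the homeobox gene Msx2 at 0.24. Secreted BMP modulators had 9 of 11 higher means above the control level, against 58.3% of all genes above it. Chrdl2, counted as higher, passed the filter through the labelled Tfrc-null arrays alone. The median log2 difference was 0.18 for the 11 and 0.09 for all 14 measured. Nbl1 read 39.3 and 43.3 against 56.3 and 55.6, and Chrdl1 had a log2 difference of 0.39.

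Markers of several kidney cell types moved with the group, and in sorted bulk cells fewer cells of a type and less RNA per cell cannot be told apart. The summed intensity of 11 stromal markers was 13574 and 9454 on wildtype arrays and 17087 and 14819 on labelled Tfrc-null arrays (log2 difference 0.49), with 11 of 11 means higher and 8 of 11 apart. The difference was 0.23 without wildtype replicate 2 and 0.75 without wildtype replicate 1. The sum of 11 ureteric bud markers was 8236 and 8421 against 3329 and 4080 (-1.18), with 11 of 11 lower and 9 apart. Endothelial markers summed to 5873 and 5307 against 3670 and 3111 (-0.72), with 9 of 9 lower.

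Erythroid markers summed to 1364 and 4130 on wildtype arrays and 81.3 and 98.2 on the others, with 6 of 6 lower. Neutrophil markers summed to 4415 and 7549 against 137 and 558, with 4 of 6 lower and 2 higher. The summed intensities of cap mesenchyme, early nephron, podocyte, proximal tubule and leukocyte markers differed by -0.16 to -0.07 on the log2 scale. A sum follows its brightest members, and single markers went both ways. Means were higher for 4 of 6 early nephron, 4 of 6 leukocyte, 2 of 4 podocyte, 2 of 8 cap mesenchyme and 0 of 6 proximal tubule markers. Without wildtype replicate 2 the early nephron and proximal tubule differences turned to 0.082 and 0.087, and the former was 0.065 without labelled Tfrc-null replicate 1. Over all single arrays left out, the 5 lists ranged from -0.41 to 0.087. Every measured marker of the kidney lists was above the control level on at least 1 array, whereas Epb42, Itgam and Elane, of the blood lists, exceeded it on none. The part of these marker differences in those of Fgf7, Bmp5, Fgf18, Fgf1 and Bmp7, and in those of the FGF-induced genes, was not tested.

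**Figure D5:**
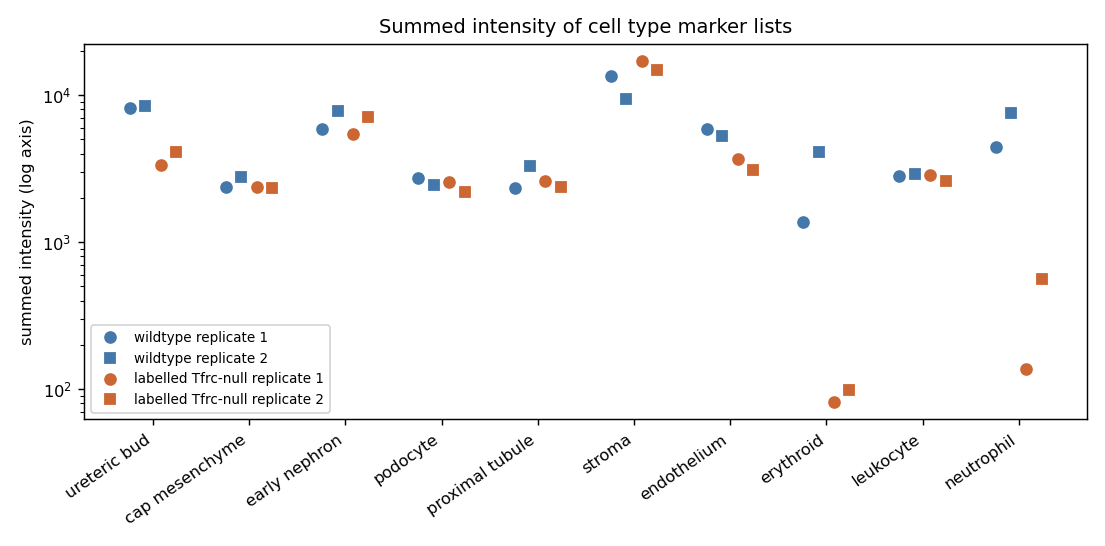
Summed intensity (log axis) of each cell type marker list on the 4 arrays; circles are replicate 1 and squares replicate 2. Ureteric bud, endothelial, erythroid and neutrophil sums are lower on both labelled Tfrc-null arrays, and the stromal sums are higher.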

How the data were processed

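Probe set intensities of 4 arrays were used as deposited by the authors on a linear scale. RMA is the only tool in the submitters' processing notes, without version or settings. RMA equalises arrays, so a shift shared by most genes would not be seen. Per the labels, 50 ng of total RNA was amplified per array. The 45101 probe sets were log2-transformed. The platform annotation gave 1 symbol for 34958, several for 932 and none for 9211, and symbols were updated by Entrez identifier (18033 of 18194 genes found in RefSeq, GRCm38.p6).

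Groups were compared with limma 3.58.1 (R 4.3.3; lmFit and eBayes, no block, no filter), Benjamini-Hochberg over all genes, threshold 0.05. For 2 arrays against 2, the smallest two-sided p of an exact permutation test is 0.333. Folds are 2 to the power of the log2 difference. A fold against a group below the control level takes that level as the dim value and is a lower bound. Further probe sets were taken from a fit over all probe sets. The scripts were tested on simulated data.

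Members and lists were chosen with earlier results of these data known. Named members were those above the control level, without overlap and at least 1.5-fold apart, a set with renal roles, and the 2 genes with the smallest p in each pathway list. Fgf12 and other genes beyond these were chosen after their values were seen. Arrays with the same replicate number deviated together (correlation of deviations 0.512 across 18194 genes, which are not independent). Nothing in the labels pairs them, and 2 pairs are too few to establish it. Alternatives were a replicate block, each array left out, a low-value filter, other probe set choices, an offset of 16, quantile normalization, median centring, and trend with robust variances. Promoter sequences are RefSeq's.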

Additional observations from a re-analysis of the deposited data

How the results depend on the processing

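With 2 arrays a group, precision is limited by their number, and no member passed the threshold under any of the 12 alternatives. The adjusted p of Bmp5, Fgf7 and Fgf18 ranged from 0.113 to 0.398 over the alternatives that kept all 4 arrays. Over all genes, 2 passed with the replicate number as a block, 2 with trend and robust variances and 1 when probe sets of a gene were averaged, none of them a member. With the block, 9 members stood higher and 3 lower at an unadjusted p under 0.05. The share of all genes was not counted for that fit, so these numbers cannot be set against the 8.02% of the fit without a block. The 9 include Nog, below the control level on all 4 arrays, and Grem1 and Fgf21, below it on both wildtype arrays. At an adjusted p of 0.05 the block changed no call of a member.

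The number of members lower at an unadjusted p under 0.05 (limma) was 1 with an offset of 16 and 1 with trend and robust variances. The share of all genes was not counted for these fits either. With that offset, 1 member kept a 2-fold difference without overlap, since an offset shrinks differences of dim genes. The median log2 difference of members above the control level was 0.10 with the mean of all probe sets, 0.056 with the offset, 0.15 after quantile normalization and 0.11 after median centring. Leaving out 1 array at a time, it ranged from 0.036 to 0.25, the number higher at an unadjusted p under 0.05 from 3 to 6, the number lower from 0 to 2, and the number 2-fold lower without overlap from 0 to 1.

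With the mean of all probe sets, the log2 difference turned to 0.11 for Fgfr4, 0.067 for Spry2, 0.018 for Spry4 and -0.040 for Fgf4. Leaving out 1 array, differences changed sign for Bmp2 (-0.34 to 0.73), Bmp4 (-0.063 to 0.75), Bmpr2 (-0.31 to 0.076), Fgf20 (-0.62 to 0.34), Fgfr3 (-0.12 to 0.28), Fgfr4 (-0.34 to 0.19), Spred2 (-0.29 to 0.00095), Spry2 (-0.22 to 0.074) and Spry4 (-0.69 to 0.51). The sign also changed for Bmp8b, Fgf3, Fgf4, Fgf11, Fgf13, Fgf22, Gdf2, Gdf10, Spred3 and Spry3, which ranged from -0.50 (Spred3) to 0.82 (Fgf11), and for Bmp10, Fgf14 and Gdf5, which lay near the control level. Beyond the changes that follow from fewer arrays or from the offset, the cause was not tested.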
